A study of Caenorhabditis elegans with 2 samples.

Results

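The mitochondrial ribosomal protein genes of Caenorhabditis elegans were taken by name, as every protein-coding gene whose symbol in the WBcel235 annotation begins with mrpl- (large subunit) or mrps- (small subunit). The rule gave 70 of 19973 protein-coding genes, 41 of the large subunit and 29 of the small one. Any gene for a mitochondrial ribosomal protein under another symbol was left out. The measurement was ChIP-seq for LIN-40, a worm MTA protein of the NuRD complex, in whole hermaphrodite young adults of strain OP485. The NuRD complex remodels nucleosomes and removes acetyl groups from histones. The OP485 line is transgenic and carries LIN-40 fused at its C terminus to GFP and FLAG. Worms were collected 57.25 hours after starved L1 larvae were synchronized, chromatin was sonicated, and an antibody to GFP recovered the fusion protein. Both samples, labelled biological replicates 3 and 4, belong to 1 group, and no control library was analysed here, so the design allows no test over samples. All tissues of the worm were mixed, and the signal cannot be assigned to any of them.

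Mitochondria have their own ribosome, which translates the few proteins encoded in mitochondrial DNA, all of them parts of the respiratory chain and the ATP synthase. Its RNA comes from mitochondrial DNA, whereas its proteins are encoded by nuclear genes and imported. Some of these proteins have counterparts in bacterial ribosomes, and others were first described in mitochondria. In C. elegans, knockdown of mrps-5 and of related genes is known to induce the mitochondrial unfolded protein response and to lengthen life.

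A gene was counted as called where a peak summit lay between 1000 bp upstream and 200 bp downstream of any of its transcript starts. The strictest list held the 3066 regions of the pooled samples that met the authors' limit on the irreproducible discovery rate (IDR), on genome build ce11. The pooled list and the list of each replicate held 30000 regions each and include background regions. The signal of a region is the authors' caller's own value; how it was scaled is not stated in the labels or files, so it ranks regions within 1 list; values of several lists stand side by side for each gene, and across the replicate and pooled lists, of equal length, ranks are compared rather than levels. IDR regions had a pooled signal of at least 99.97. Read depth is unknown. Exact (Clopper-Pearson) 95% intervals of shares cover counting error only.

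LIN-40 summits lay in the windows of a minority of these genes at the IDR threshold, and of most of them in the longer pooled list. An IDR summit was called for 17 of 70 members (24.3%, interval 14.8 to 36), against 9.91% of all protein-coding genes (1979 of 19973) and 9.66% of autosomal ones. No member lies on X, which holds 13.7% of protein-coding genes. The pooled list placed a summit at 44 of 70 members (62.9%, interval 50.5 to 74.1), against 30.9% of all protein-coding genes. The cytoplasmic ribosomal protein genes, named by rpl- or rps-, had an IDR summit at 56 of 78 (71.8%, interval 60.5 to 81.4). These differences were not tested, since genes that share a name or a neighbourhood are not replicates.

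The 201 bases around a summit are printed for 5 genes, read 5′ to 3′ on the gene's strand from the ce11 reference (RefSeq, assembly WBcel235), with the summit at base 101. They are shown because they cover the member windows of highest signal (mrpl-28 and mrps-7), an 8-base match at the summit itself (mrps-7), repeated GAGAGA (mrpl-40 and mrpl-35), and the peak that a large and a small subunit gene share (mrps-24, with mrpl-1 on the other strand). Capitals mark matches on either strand to GAGAGA, found within 100 bp of 37.7% of all IDR summits in promoter windows, or to CTGCGTCT, found at 13.3%. The mrpl-28 and mrps-24 stretches hold neither.
mrpl-28: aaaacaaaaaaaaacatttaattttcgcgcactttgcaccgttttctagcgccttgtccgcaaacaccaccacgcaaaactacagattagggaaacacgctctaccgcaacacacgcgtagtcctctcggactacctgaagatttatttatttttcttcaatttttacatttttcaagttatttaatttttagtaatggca
mrps-7: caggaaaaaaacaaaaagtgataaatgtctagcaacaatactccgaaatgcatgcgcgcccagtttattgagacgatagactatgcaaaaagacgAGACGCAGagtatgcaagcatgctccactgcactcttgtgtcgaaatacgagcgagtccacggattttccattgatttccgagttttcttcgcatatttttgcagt
mrpl-40: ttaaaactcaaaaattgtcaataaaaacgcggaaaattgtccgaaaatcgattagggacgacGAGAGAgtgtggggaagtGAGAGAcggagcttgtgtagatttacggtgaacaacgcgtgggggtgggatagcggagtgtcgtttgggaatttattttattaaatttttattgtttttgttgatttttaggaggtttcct
mrpl-35: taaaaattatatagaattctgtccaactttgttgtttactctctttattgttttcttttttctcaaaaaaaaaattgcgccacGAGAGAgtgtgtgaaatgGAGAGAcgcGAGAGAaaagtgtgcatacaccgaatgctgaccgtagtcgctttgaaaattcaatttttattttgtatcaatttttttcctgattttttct
mrps-24: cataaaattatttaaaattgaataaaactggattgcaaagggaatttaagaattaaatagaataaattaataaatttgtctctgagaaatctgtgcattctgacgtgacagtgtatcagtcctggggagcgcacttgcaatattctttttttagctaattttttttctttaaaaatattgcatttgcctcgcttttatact
The mrpl-28 stretch is chrII:156002-156202 on the minus strand, and its annotated start is base 194. The mrps-7 stretch is chrIV:14767789-14767989 on the minus strand. The mrpl-40 and mrpl-35 stretches are chrIII:87284-87484 and chrIII:3509997-3510197, both on the plus strand. The mrps-24 stretch is chrIV:7709788-7709988 on the plus strand.

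In the large subunit 12 of 41 genes had an IDR summit (29.3%, interval 16.1 to 45.5), and in the small subunit 5 of 29 (17.2%, interval 5.85 to 35.8), against 9.91% of all protein-coding genes, a share inside the small subunit's interval. The difference between the subunits was not tested. In the pooled list the subunits had nearly equal shares, 26 of 41 (63.4%) and 18 of 29 (62.1%). Names follow the human proteins in places only loosely: the human counterparts of mrps-18A and mrps-30 sit in the large subunit, and with these moved there, a recount added after the data were seen, the counts were 12 of 43 (27.9%) and 5 of 27 (18.5%). Large subunit numbers up to 36 and small subunit numbers up to 21 are names shared with bacterial ribosomal proteins, and of the 41 members with such names 11 were called (26.8%, interval 14.2 to 42.9). Of the 29 members with higher numbers, names of proteins first described in mitochondria, 6 were called (20.7%, interval 7.99 to 39.7), an interval that includes the 9.91% of all protein-coding genes. The difference between the name classes was not tested.

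**Figure D1:**
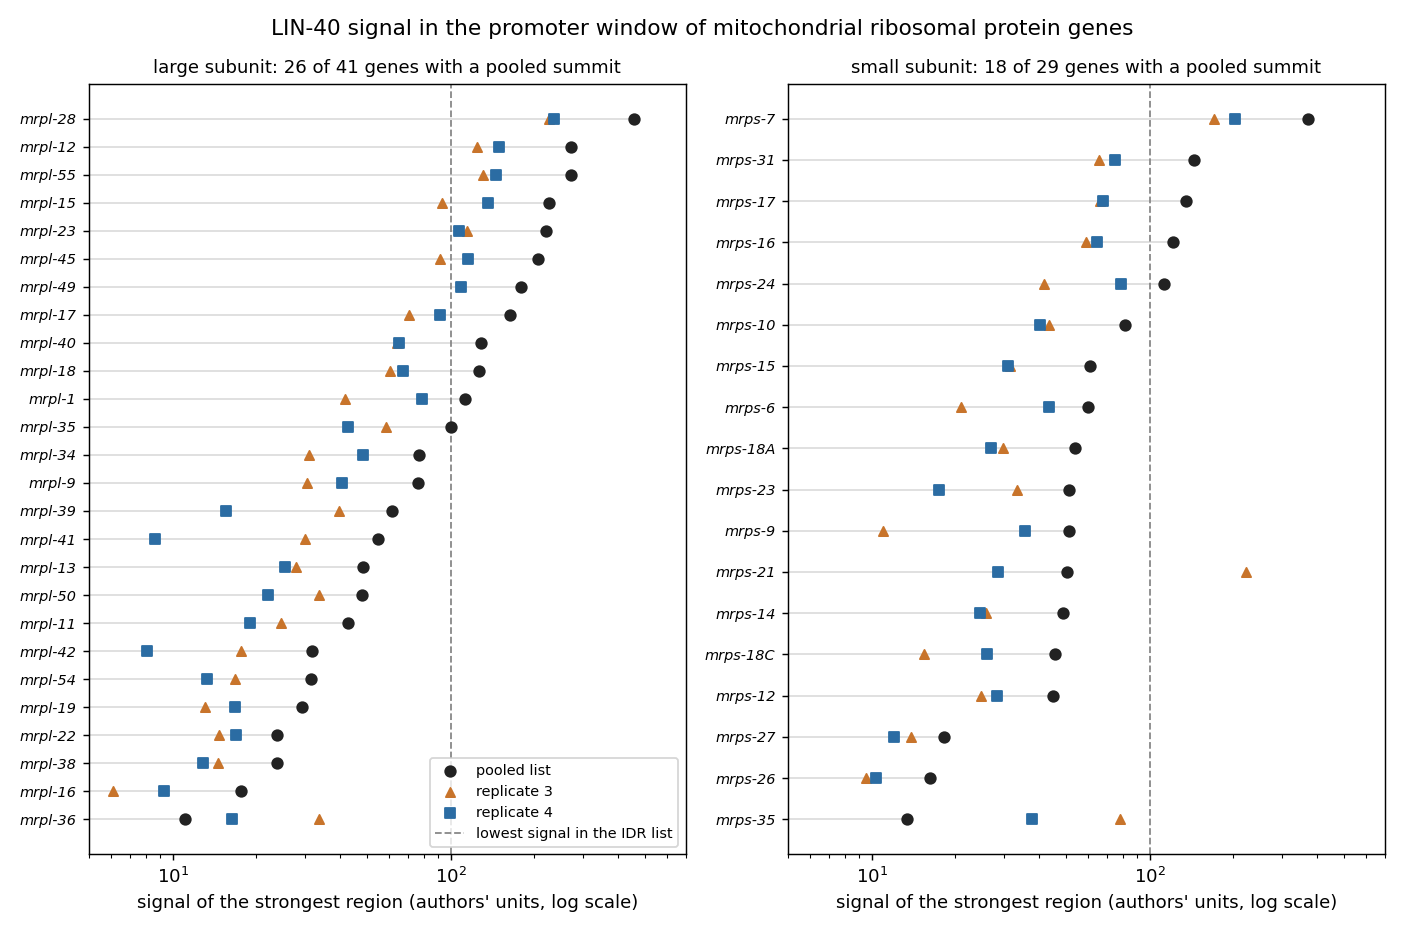
Signal of the strongest region in the promoter window of each member with a pooled summit (authors' units, log axis), large subunit left and small subunit right, with circles for the pooled list, triangles for replicate 3 and squares for replicate 4. Of the 44 genes shown, 17 lie at or above the dashed line, the lowest signal in the IDR list. For mrps-21 the replicate 3 point (222) and the pooled point (50.3) are different summits, at -976 bp and 199 bp downstream of the start.

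Among large subunit genes the highest signal was at mrpl-28, whose product has a bacterial L28 counterpart. Its peak (II 155928 to 156262) had a signal of 458 in the pooled list, 226 in replicate 3 and 235 in replicate 4, with the summit 93 bp upstream of the start. It ranked 223 among the pooled regions, 197 in replicate 3 and 258 in replicate 4, and no other protein-coding gene had this summit in its window. The summit was also the nearest to a start of the 17 called members.

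The peak at mrpl-12, which encodes the stalk protein that contacts translation factors, followed with a signal of 272 in the pooled list, 125 in replicate 3 and 149 in replicate 4. Its summit was at -504 bp (negative positions are upstream), closer to the start of the neighbour Y39A1A.22 (229 bp). At mrpl-55, for a protein with a mitochondrial name, the signal was 270 in the pooled list, 131 in replicate 3 and 145 in replicate 4, with the summit at -128 bp. No other protein-coding window held the mrpl-55 summit.

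The peaks at mrpl-15 and mrpl-23 lay farther out than the others. For mrpl-15 the signal was 226 in the pooled list, 92.9 in replicate 3 and 136 in replicate 4, at -652 bp, and no other protein-coding start was nearer. For mrpl-23, whose bacterial counterpart sits by the exit of the peptide tunnel, it was 220 in the pooled list, 115 in replicate 3 and 107 in replicate 4. That summit (I 6212831), 946 bp upstream of mrpl-23, lay in an intron of fars-1, a cytoplasmic phenylalanyl-tRNA synthetase gene, and within an exon of the non-coding RNA gene T08B2.14. It was 7 bp from the start of the small nucleolar RNA gene T08B2.13. Of the 16 distinct summits at members, the other 15 lay outside every annotated gene.

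The mrpl-45 peak had a signal of 207 in the pooled list, 91.4 in replicate 3 and 115 in replicate 4, at -355 bp. In mammals MRPL45 helps hold the ribosome at the inner membrane. The mrpl-49 peak had a signal of 179 in the pooled list and 109 in replicate 4, while the replicate 3 list had no region there. It was the only called member missing from one replicate's list of 30000 regions. That summit, at -157 bp, also lay in the window of rpl-28, a cytoplasmic large subunit gene that starts on the opposite strand.

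Signals were lower at the remaining large subunit genes. For mrpl-17 they were 163 in the pooled list, 70.9 in replicate 3 and 91.9 in replicate 4 (-178 bp). That summit also lay in the window of vbh-1, a DEAD-box RNA helicase gene on the opposite strand. For mrpl-40 they were 128 in the pooled list, 64.1 in replicate 3 and 65.1 in replicate 4 (-175 bp), and the start of F54C4.4 was 3 bp from that summit. For mrpl-18 they were 126 in the pooled list, 60.7 in replicate 3 and 67.1 in replicate 4 (-237 bp).

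The weakest call was mrpl-35, just inside the threshold, with 101 in the pooled list, 58.4 in replicate 3 and 42.8 in replicate 4 (-140 bp). The replicates placed this region at rank 2458 in replicate 3 and 4644 in replicate 4, so it was among the 3066 strongest of replicate 3 but not of replicate 4. The 3 members of highest signal below the threshold were mrps-10, mrpl-34 and mrpl-9.

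The small subunit calls were led by mrps-7, whose bacterial counterpart lies in the head of the subunit near the transfer RNA sites. Its signal was 372 in the pooled list, 170 in replicate 3 and 203 in replicate 4. The summit stood at -159 bp, at the same base in replicate 3 and 1 bp away in replicate 4. The other small subunit peaks were far lower, between 113 and 144 in the pooled list. The mrps-31 peak had 144 in the pooled list, 65.6 in replicate 3 and 75.2 in replicate 4 (-141 bp). The mrps-17 peak had 136 in the pooled list, 66.5 in replicate 3 and 68.1 in replicate 4 (-111 bp), and its summit also lay in the windows of popl-1 and txdc-9. The mrps-16 peak, the narrowest at 128 bp, had 121 in the pooled list, 59.0 in replicate 3 and 64.6 in replicate 4 (-212 bp).

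The last pair shared 1 peak: mrpl-1 and mrps-24 start on opposite strands, and the summit of the peak at IV 7709797 to 7709978 was at -187 bp from mrpl-1 and -157 bp from mrps-24. It was the only summit common to a large and a small subunit gene, and so 17 called genes rested on 16 peaks. Its signal was 113 in the pooled list, 41.8 in replicate 3 and 78.9 in replicate 4. Among the called members with a region in both replicates only mrpl-35 differed more in rank between them; this peak stood at 3913 in replicate 3 and 1958 in replicate 4. The summit also lay in the window of emc-6, which encodes a subunit of an endoplasmic reticulum membrane complex and whose start was the nearest.

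Across the 17 called members the median IDR signal was 163 (range 101 to 458), against 185 over all 1979 called genes. The median was 193 in the large subunit and 136 in the small one. Where both replicates had a region, their summits lay within 42 bp of the IDR summit. Taking the 3066 strongest regions of each replicate in place of the IDR list, 16 members were called in replicate 3, against 9.98% of all protein-coding genes, and 16 in replicate 4, against 9.9%. Both replicates called 13 of the 17 members. Replicate 3 missed mrpl-1, mrps-24 and mrpl-49, replicate 4 missed mrpl-35, and replicate 3 alone added mrps-21 and mrps-35.

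All 17 called members had the summit upstream of the start, as did 94.1% of all called genes. The median position was -175 bp in members (range -946 to -93) and -241 bp in all called genes. Of the members, 13 of 17 (76.5%) had it within 300 bp upstream, against 55.3% of all called genes. Member peaks had a median width of 252 bp (range 128 to 464), against 395.5 bp over the IDR list. No member had more than 1 IDR summit in its window.

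**Figure D2:**
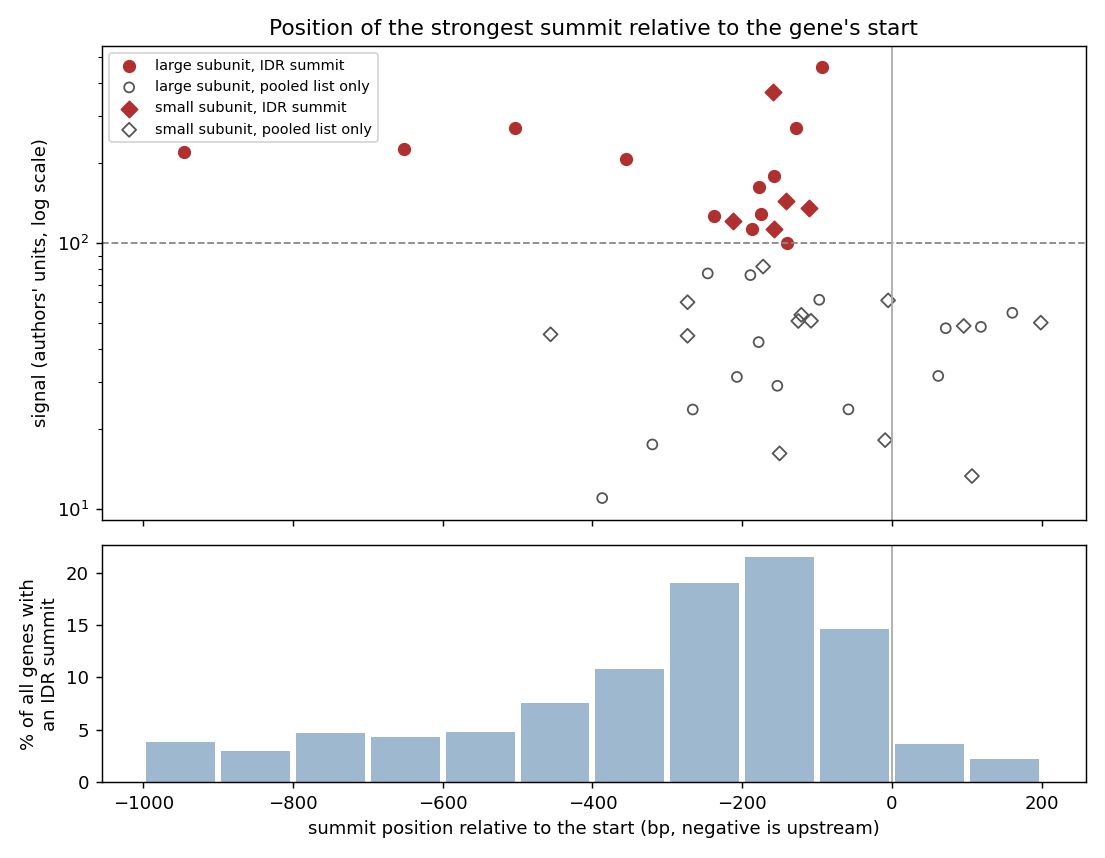
Upper panel, signal of the strongest summit (authors' units, log axis) against its position from the member's start, with filled symbols for IDR summits and open symbols for the pooled list only; lower panel, positions of the strongest IDR summit of all called genes in bins of 100 bp. The 17 IDR summits of members all lie upstream, 13 of them within 300 bp, and the fullest bin of all called genes, with 21.5%, runs from 200 to 100 bp upstream.

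Most called members shared their summit with the window of a gene on the opposite strand. The window of at least 1 other protein-coding gene held the summit for 11 of 17 members (64.7%), and in each of the 11 a gene on the opposite strand was among the partners. The 11 count the summit of mrpl-1 and mrps-24 for both genes. Whether a summit lay between the starts of the genes was not read. Over all called genes 45.3% shared the summit and 42.2% had a partner on the opposite strand. The 6 members whose summit fell in no other protein-coding window were mrpl-28, mrpl-55, mrpl-15, mrpl-23, mrps-31 and mrps-16. A member's own start was the nearest protein-coding start for 10 of 17. Over all genes, 1519 of the 1979 called kept a call when only the nearest protein-coding start counted. The difference was not tested. The lists do not show which gene of a shared window a summit belongs to.

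Below the threshold, 27 of 70 members (14 large, 13 small) had a summit in the pooled list only, against 4195 of 19973 protein-coding genes. For these 27 the median signal was 48.0 (range 11 to 81.8) and the median position -125 bp. Of their summits 20 were upstream, with no share over all such genes to stand beside it. The 5 of highest signal began with mrps-10, at 81.8 in the pooled list, 43.3 in replicate 3 and 40.4 in replicate 4. Next came mrpl-34, at 77.1 in the pooled list, 30.8 in replicate 3 and 48.3 in replicate 4. The third was mrpl-9, at 76.0 in the pooled list, 30.4 in replicate 3 and 40.7 in replicate 4. These 3 would be called with a pooled list as long as the ce10 IDR list, 4635 regions, whose lowest signal was 71.2. The other two were mrpl-39, at 61.4 in the pooled list, 39.7 in replicate 3 and 15.6 in replicate 4, and mrps-15, at 61.0 in the pooled list, 31.6 in replicate 3 and 30.9 in replicate 4. Among these 5 the replicates differed most in rank at mrpl-39, which stood at 4186 in replicate 3 and 15576 in replicate 4.

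The remaining 26 of 70 members, 15 large and 11 small, had no pooled summit in the window, against 13799 of 19973 protein-coding genes. In the large subunit they were mrpl-2, mrpl-4, mrpl-10, mrpl-20, mrpl-21, mrpl-24, mrpl-30, mrpl-32, mrpl-37, mrpl-44, mrpl-46, mrpl-47, mrpl-48, mrpl-51 and mrpl-53. In the small subunit they were mrps-2, mrps-5, mrps-11, mrps-18B, mrps-18.C, mrps-22, mrps-25, mrps-28, mrps-30, mrps-33 and mrps-34. A summit in the list of at least 1 replicate was present at 10 of these 26, the highest at mrps-25 with 53.5 in replicate 4, and 16 had none in either list. No share over all genes without a pooled summit stands beside these counts. An IDR summit lay just outside the window of 3 uncalled members: mrps-21 (signal 426 at -1003 bp), mrps-28 (432 at -1038 bp) and mrpl-48 (264 at -1195 bp). In replicate 3 the mrps-21 summit fell at -976 bp, inside the window, with a signal of 222, which is why replicate 3 called it. Of 53 uncalled members, 5 had an IDR summit within 2000 bp and 23 within 5000 bp. No share over all uncalled genes stands beside these counts, so they do not show whether such distances are unusual.

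Many C. elegans genes lie in operons, in which several genes on 1 strand are transcribed from the promoter of the first. Runs of close genes were therefore followed back on the annotation: a member was behind another gene where a protein-coding gene on the same strand ended at most 500 bp before its start or overlapped it. Such runs are defined by spacing alone and are not known operons. By this rule 29 of 70 members (41.4%) lay behind another gene, against 20.9% of all protein-coding genes. The gap was between 80 and 120 bp for 19 of the 29 (65.5%), against 22.5% of all genes behind another. This band was not among the planned settings, and it holds the members' own median gap. The median gaps were 105 bp in members and 138 bp in all genes behind another, and the difference was not tested.

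Calls were counted by place in the run. Of the 29 members behind another gene only mrpl-1 and mrpl-23 had an IDR summit in their own window (6.90%, interval 0.846 to 22.8), close to the 7.68% of all genes so placed. Of the 41 members with no close gene in front, 15 were called (36.6%, interval 22.1 to 53.1), against 10.5% of all such genes. The intervals of these member shares meet narrowly, between 22.1 and 22.8, and the difference was not tested. When the window of the run's first gene was read instead, 14 of the 29 members had an IDR summit there (48.3%, interval 29.4 to 67.5), against 17.8% of all genes behind another. This count and its interval take the natc-1 summit for both mrps-2 and mrpl-4, and 13 of 28 distinct first genes were called. Counting either the own window or that of the first gene, 30 of 70 members were called (42.9%), 19 of 41 large and 11 of 29 small, against 12.9% of all genes. Whether a summit at a first gene bears on the member behind it was not tested.

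**Figure D3:**
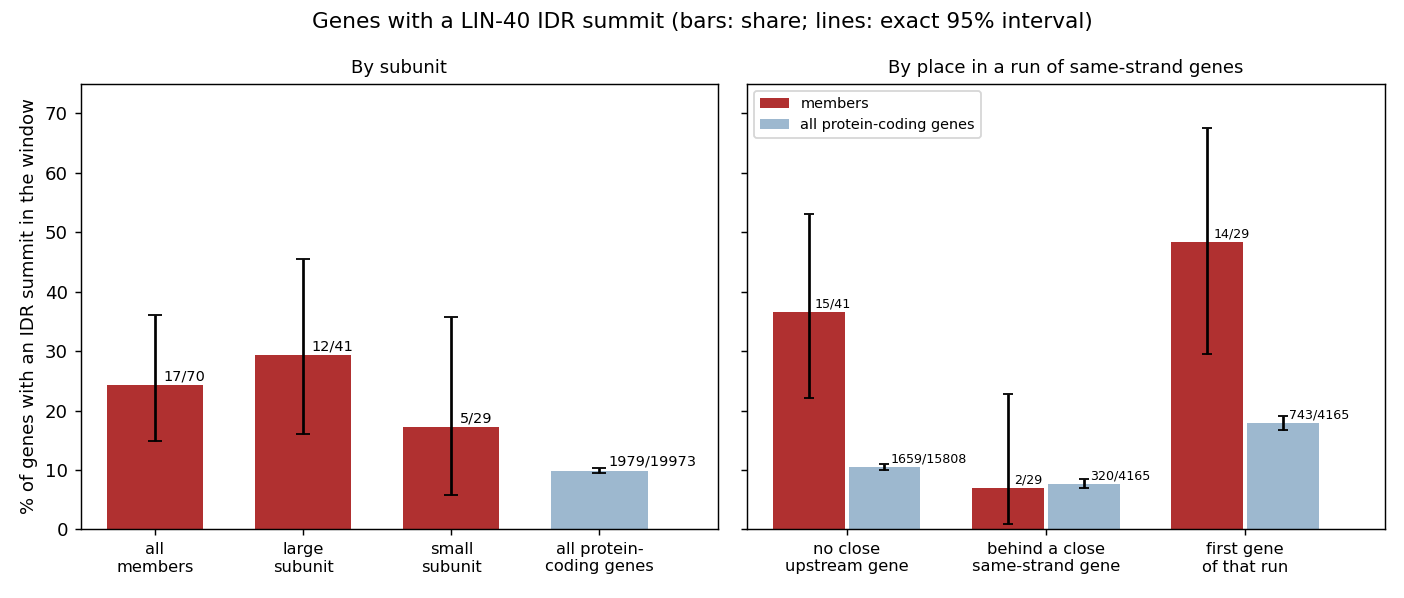
Share of genes with an IDR summit in the window (bars from 0, lines for exact 95% intervals), by subunit on the left and by place in a run of same-strand genes on the right, members in red and all protein-coding genes in blue; the rightmost pair reads the window of the run's first gene. Members with no close upstream gene stand at 36.6% and those behind another gene at 6.90%. The rightmost bar, at 48.3%, is the share of members behind another gene whose first gene was called. It is counted per member, and 13 of the 28 distinct first genes were called.

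The first genes that carried these summits had signals of 113 to 585 (median 235), and 14 members traced back to 13 of them. The highest was at rpn-3, a gene for a regulatory subunit of the proteasome, in front of mrpl-32: 585 in the IDR list, 275 in replicate 3 and 310 in replicate 4, at -199 bp from rpn-3. The own window of mrpl-32 held only weak regions, of 23.2 in replicate 3 and 44.2 in replicate 4. In front of mrpl-54 lay clsp-1, the claspin gene, with 554 in the IDR list, 258 in replicate 3 and 288 in replicate 4.

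The summit just outside the mrps-21 window was the summit of F29B9.11, at -319 bp from that gene, with 426 in the IDR list, 222 in replicate 3 and 207 in replicate 4. Likewise the one nearest to mrpl-48 belonged to the window of vps-37, an ESCRT-I subunit gene, with 264 in the IDR list, 125 in replicate 3 and 138 in replicate 4. Both members start about 100 bp behind their neighbour, with gaps of 113 bp for mrps-21 and 93 bp for mrpl-48.

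One run held a gene of each subunit. The order was natc-1, a subunit of an N-terminal acetyltransferase, then mrps-2 and mrpl-4, with gaps of 116 and 105 bp. The natc-1 summit had 198 in the IDR list, 80.5 in replicate 3 and 119 in replicate 4, at -75 bp, and neither mrps-2 nor mrpl-4 had a pooled summit of its own.

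Further first genes with an IDR summit were misc-1 (302, before mrpl-41), W04D2.4 (297, before mrps-11), nrde-2 (235, before mrps-14), tag-124 (222, 4 genes before mrpl-53) and atp-2 (201, before mrps-26). W04B5.5 (136) stood before mrpl-30 and uev-1 (138) before mrps-27, and emc-6 (113) before mrpl-1, where both windows hold the same peak. Among these atp-2, the beta subunit of the mitochondrial ATP synthase, and misc-1, a mitochondrial carrier, also act in mitochondria. Neither the own window nor that of the first gene was called for 14 of the 29, among them mrps-22, which stands in a run begun by the RNA polymerase subunit gene rpb-6. Not all of these first genes lacked strong regions. In the run of mrps-33 the first gene, F21D5.7, had no IDR summit but 119 in replicate 3 and 157 in replicate 4. Both values exceed the lowest signal of the 3066 strongest regions of the same replicate, 50.3 and 58.7.

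The mrps-5 gene was also among the members with neither window called. It starts 103 bp behind sel-1, a gene of endoplasmic reticulum-associated degradation, and its own window held no region in the IDR, pooled or replicate lists. The sel-1 window had no IDR summit, with 12.3 in replicate 3 and 33.4 in replicate 4. The nearest IDR summit to mrps-5 was at -10019 bp (signal 131).

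**Figure D4:**
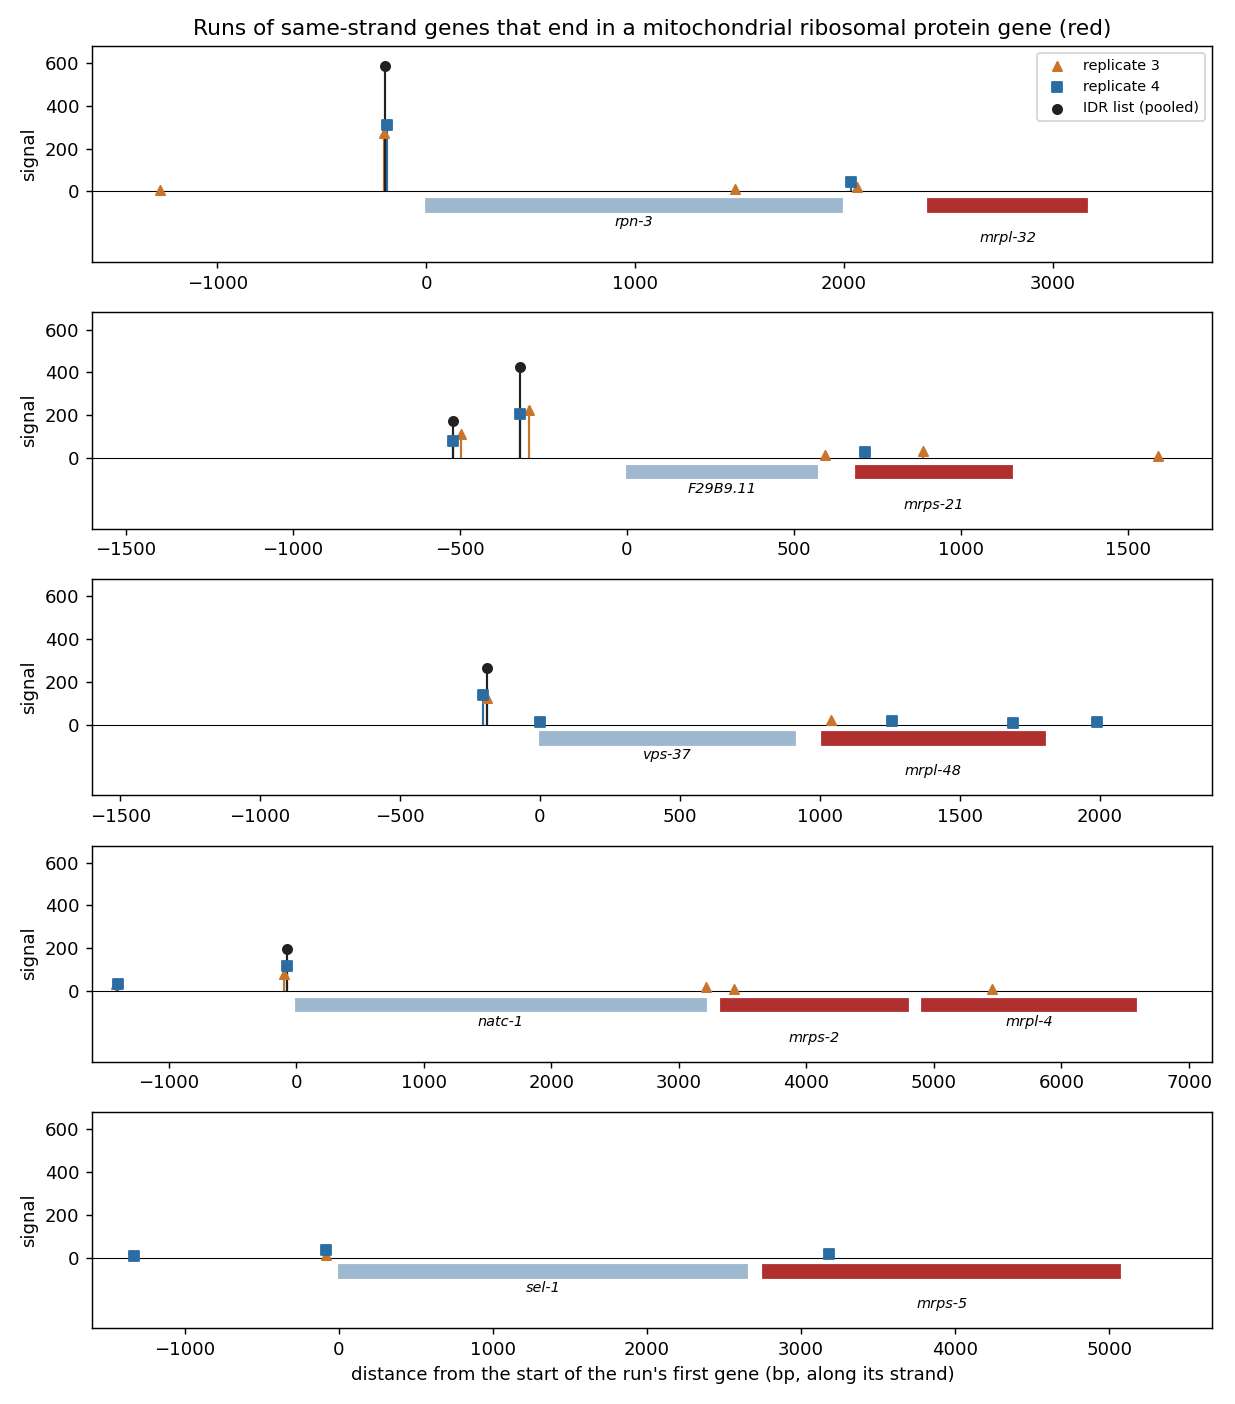
Maps of 5 runs, chosen after their values were seen, with genes as bars (members in red, others in blue) along the distance in bp from the start of the first gene, and stems for the signal of each summit (authors' units, linear axis) in the IDR list and in replicates 3 and 4. In each of the upper 4 runs the tallest stem stands in front of the first gene, with an IDR signal between 198 and 585, and in the sel-1 run no region exceeds 33.4.

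Across the autosomes the called members were 3 of 15 on I, 2 of 12 on II, 7 of 22 on III, 4 of 11 on IV and 1 of 10 on V. As shares these were 20% on I, 16.7% on II, 31.8% on III, 36.4% on IV and 10% on V, against 12.3%, 8.44%, 14.2%, 9.48% and 6.69% of all protein-coding genes of the same chromosomes. On III, which holds the most members, the interval was 13.9 to 54.9, and each of these intervals includes the share of all genes except on IV (10.9 to 69.2). The 4 called members on IV rest on 3 peaks, since mrpl-1 and mrps-24 share 1, and this interval counts that peak for both genes. In the centres of the chromosomes, the middle 50% of their length, 9 of 47 members were called (19.1%), against 10.7% of all autosomal genes there. In the arms 8 of 23 were called (34.8%, interval 16.4 to 57.3), against 8.30% of all autosomal genes there. The difference between members in arms and centres (interval 9.15 to 33.3 in the centres) was not tested.

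Within 100 bp of each summit 4 motifs were searched on both strands, spelled GAGAGA, CTGCGTCT, the palindrome CACGTG, and CNCCGCCC with N for any base. No motif contains another, and each start of a match was counted, so a longer GA repeat gives several overlapping matches. GAGAGA was present at 5 of 16 member summits (31.2%, interval 11 to 58.7), those of mrpl-15, mrpl-17, mrpl-40, mrpl-35 and mrps-16, against 37.7% of all 1675 IDR summits in promoter windows. CTGCGTCT was present at 1 (6.25%), that of mrps-7, starting 5 bp before the summit on the reverse strand, against 13.3% of all. CACGTG and CNCCGCCC were at none of the 16, which allows shares of up to 20.6%, against 8.48% and 5.19% of all. The windows of 11 of the 17 called genes held none of the 4 motifs, those of mrpl-28 and mrps-24 printed above among them. The 11 include both mrpl-1 and mrps-24, which share 1 summit. No share of all promoter IDR summits without any of the 4 stands beside this count, so it is not shown to be a trait of members. Member windows had a median GC content of 38.6%, against 42.3% for all promoter IDR summits. At the strongest summits of the 27 members with a pooled summit only, GAGAGA was present in 14.8%, against 19.9% of 8416 summits. The 8416 are all summits below the IDR list in promoter windows, several for some genes, so the 2 bases are unlike. CACGTG was present at 3 of the 27 (11.1%), against 4.80%, and CNCCGCCC at 2 (7.41%), against 3.27%.

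Other genes of mitochondrial gene expression were read in the same way. Of 10 mitochondrial tRNA synthetase genes matched in the annotation, 1 had an IDR summit, ears-2, with 368 in the pooled list, 162 in replicate 3 and 211 in replicate 4. Of 11 translation and ribosome assembly factor genes 3 were called: tufm-1 (143) and tufm-2 (117), for mitochondrial elongation factor Tu, and mtg-1 (132), for an assembly GTPase. Of 6 genes for maintenance of mitochondrial DNA and RNA 2 were called, mma-1 (153), whose mammalian counterpart LRPPRC stabilises mitochondrial messenger RNA, and mtss-1 (129), for a single-stranded DNA binding protein. The shares were 10%, 27.3% and 33.3%, against 9.91% of all protein-coding genes, and with so few genes per list each interval (0.253 to 44.5, 6.02 to 61.0 and 4.33 to 77.7) includes that share.

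Of 12 genes of the mitochondrial unfolded protein response and protein quality control, 6 had an IDR summit (50%, interval 21.1 to 78.9), against 9.91% of all protein-coding genes. The difference was not tested. The chaperonin gene hsp-60 had 1001 in the pooled list, 485 in replicate 3 and 519 in replicate 4, more than any member. The others were ubl-5 (221), hsp-6, a mitochondrial HSP70 (219), clpp-1, a matrix protease subunit (206), atfs-1, the transcription factor of the response (194), and phb-2, a prohibitin (143). The summits of hsp-60 (-618 bp) and phb-2 (-450 bp) lay farthest from the start. Whether another gene's start was nearer was not read for this list. For dve-1 and phb-1 the pooled list held regions of 57.9 and 74.5, below the IDR threshold. The window of dnj-10 held a region in replicate 4 only (63.4), and those of haf-1, lonp-1 and spg-7 held none in any list.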

How the data were processed

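Peak lists of 2 samples, labelled biological replicates 3 and 4 of 1 group, were the starting point. Per the labels and the deposited file listing, the authors called regions on ce11 against a control alignment, on each sample alone and on both pooled, and thresholded the pooled regions by IDR. No caller, aligner or IDR limit is given in the sources used here. The deposited signal value is the authors' caller's own, and the deposited −log10 q-value ranked nothing in the IDR list, where every region had 4.13. In signal the 3066 IDR regions were the top 3066 of the pooled list. The ce10 IDR list (4635 regions) was used for its length only.

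Genes came from Ensembl release 115 on WBcel235, the same assembly as ce11; the region ends of every chromosome lay within its lengths. Summits were matched to windows, and motifs counted, with Python 3.11.15, pandas 2.3.3 and numpy 2.4.6; intervals came from scipy 1.17.1 and figures from matplotlib 3.10.9. The matching was tested on planted summits. A summit could count for several genes, and its position was taken from the nearest start of the gene.

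The members, gene lists and motifs were chosen with earlier results of these data known. Named were every member with an IDR summit, the 5 of highest signal among members with a pooled summit only, every member with no pooled summit, and mrps-5. No match was found for cars-2, mars-2, wars-2, gfm-2, mtif-2, mtif-3, mtrf-1, mtg-2 and mterf-1. The alternatives were other windows, starts, thresholds and gaps, and each replicate's own list.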

Additional observations from a re-analysis of the deposited data

How the results depend on the processing

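Counting a summit only for the nearest protein-coding start left 10 of 70 members called, against 1519 of 19973 protein-coding genes (7.61%). Of the 10, 6 were large subunit genes. The 7 lost were mrpl-1, mrpl-12, mrpl-18, mrpl-35, mrpl-40, mrpl-45 and mrps-24. With the stronger 50% of IDR peaks 8 members remained, 7 large and 1 small (mrps-7), against 5.81% of all genes, and among them the median signal was 248 and the median position -257 bp. Without replicate 3 or without replicate 4, the median signal was 84.9 to 99.6, each on the scale of the remaining replicate's own list, and 16 members were called either way. The window of 500 bp upstream called 14 members (7.81% of all genes), the outermost starts 17 (9.12%), the list as long as the ce10 IDR list 20 (13.4%), the window of 2000 bp 20 (12.9%), and a window of 1200 bp, added after seeing the data, 20 (10.6%); both wider windows added mrpl-48, mrps-21 and mrps-28. GAGAGA was at 12.5% of member summits within 50 bp and 37.5% within 200 bp, against 24.1% and 49.4% of all promoter IDR summits. With the stronger peaks it was at 12.5% of member summits, with no share over all stronger peaks beside it. With a gap of 300 bp, 24 members lay behind another gene (34.3%), against 15.4% of all protein-coding genes. With a gap of 1000 bp, 36 did (51.4%), against 31.4%. Of these members 8.33% and 11.1% were called, against 7.04% and 7.65% of all genes so placed.

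No paired analysis was possible because both samples belong to 1 group. With 70 genes and 2 replicates, shares carry wide intervals, and no difference between groups of genes was tested. Read depth is unknown, and no control library was analysed here, so signal cannot be set against background. Runs of genes rest on spacing in the annotation.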

Other observations

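GAGAGA copies at the summits of mrpl-40 and mrpl-35 were spaced alike: in both, 2 copies on the gene's strand began 18 bases apart. This spacing was picked after the sequences were seen. It occurred at 2 of 16 member summits (12.5%) and at 33 of 1675 promoter IDR summits (1.97%). For 16 bases the counts were 1 of 16 (6.25%) and 26 of 1675 (1.55%), and for 20 bases 0 of 16 and 17 of 1675 (1.01%). Spacings of 17 and of 19 bases each stood at 9 of 1675 (0.537%). Copies within a GA repeat begin an even number of bases apart, so the odd spacings are not a like base for 18. No test was run.

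Some members ranked differently in the pooled list and in the replicate lists of the same length; the examples were picked after their values were seen. In the mrps-35 window the strongest region ranked 1589 in replicate 3 (-109 bp) and 5473 in replicate 4 (70 bp downstream of the start), against 24321 in the pooled list (107 bp downstream). In the mrpl-36 window it ranked 5221 in replicate 3 (-186 bp) and 14821 in replicate 4 (-142 bp), against 27206 in the pooled list (-387 bp). The windows of mrpl-32 and mrpl-20 held a summit in both replicate lists and none in the pooled list. At mrps-21 the replicate 3 summit stood at -976 bp and the IDR summit at -1003 bp, on either side of the window's edge.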
